A study of Mus musculus with 14 samples.

Results

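The genes of neurotrophin and GDNF signalling examined here were 9 in number: the ligands Bdnf, Ntf3 and Gdnf, the receptors Ntrk2, Ntrk3, Ngfr and Ret, and the co-receptors Gfra1 and Gfra2. They were found by symbol among the 19215 genes of the RNA-seq tables of mouse whole spinal cord (WSC), and their cassette exons, 5 of 13189, by the Entrez number of the gene in the name of the exon. In the mm9 assembly, Bdnf lies at chr2:109514857-109567204, Ntf3 at chr6:126051431-126116762, Gdnf at chr15:7761011-7787575, Ntrk2 at chr13:58907957-59235331, Ntrk3 at chr7:85337248-85723294, Ngfr at chr11:95430132-95449049, Ret at chr6:118101766-118147762, Gfra1 at chr19:58310094-58530399 and Gfra2 at chr14:71289927-71379645. All 9 were also found in the gene annotation used to count the reads of NOVA HITS-CLIP, in which the neuronal RNA-binding protein NOVA is crosslinked to RNA by UV light, immunoprecipitated, and the RNA bound to it sequenced.

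The CLIP data were 12 libraries from spinal cords of mice of the C57BL/6 background aged 3 months. In 4 Chat6 and 4 Chat17 libraries, pooled cords of mice hemizygous for a GFP-NOVA2 transgene driven by the promoter of Chat (choline acetyltransferase, the enzyme that makes acetylcholine in motoneurons) were precipitated with antibodies to GFP, and these 8 libraries of a pair of transgenic lines are called MN. In 4 WSC libraries, single cords were precipitated with an antiserum to NOVA itself, which takes endogenous NOVA1 and NOVA2. The cell type, the precipitated protein, the antibody, the transgene and the pooling therefore differ together between MN and WSC and cannot be told apart. Poly(A) RNA-seq was 1 library of a male and 1 of a female mouse of the B6/SJL background aged 12 weeks, both carrying the transgene Tg(SOD1)2Gur/J, which expresses wild-type human SOD1. These are bulk measurements, in which fewer cells of a type and less RNA per cell cannot be told apart.

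Neurotrophins are secreted growth factors that act through Trk receptor tyrosine kinases and through the low-affinity receptor NGFR, also called p75. GDNF and its relatives bind a GFRA co-receptor held on the membrane by a lipid anchor, and the complex engages the receptor tyrosine kinase RET. Both families are known for keeping motoneurons alive during development and after injury, and several of the receptors are made as long and short forms by alternative splicing or polyadenylation.

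The depth of CLIP differed between the groups, with 65961 to 871804 unique reads in an MN library and 2213104 to 6095995 in a WSC library. Of the reads in a single gene, 35.6% to 48.0% were exonic in MN libraries and 61.5% to 66.7% in WSC libraries. The labelled cell type was checked on marker genes. Of 7 motoneuron markers, 3 could be tested and all 3 were higher in MN. The CPM (reads scaled to the library size with edgeR's TMM factors) summed over the whole list, tested or not, was 1122 to 2793 in MN and 354 to 472 in WSC libraries. Mnx1 had no MN read. All 6 interneuron markers were lower in MN (369 to 1181 CPM against 3791 to 4062 CPM), as were the 3 astrocyte markers tested of 5. Summed over all 5 astrocyte markers, the level was 835 to 1703 CPM against 1993 to 2577 CPM. None of the 2 oligodendrocyte markers tested was called. Markers of dorsal root ganglion neurons were at 0 in all MN libraries and at most 1.06 CPM in WSC. The 2 RNA-seq libraries had 72006019 (male) and 65625173 (female) reads on genes.

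The sequences under the largest read piles are given first, because the results on binding position turn on them. NOVA binds a CA between pyrimidines, so the motif TCAT was searched for along the transcript, as were the forms that begin with C in place of the first T or end with C in place of the last (TCAC, then CCAT, as well as CCAC), with overlapping matches counted, and each match is in capitals. Positions are of mm9 and all sequences are written 5′ to 3′ along the transcript. The first 8 are the 30 bases with the most reads in a leading 3′ UTR window of each gene, or in a window that differed between MN and WSC. The Ret window at the stop codon takes in coding exon as well as 3′ UTR. Its 30 bases hold the end of the coding region with the stop codon (tag), and only the bases after it are 3′ UTR.
Ret 3′ UTR, chr6:118104700-118104729, minus strand: tgttgTCACTCACgaagccagtgctaaata
Ret 3′ UTR next to the stop codon, chr6:118105262-118105291, minus strand: gcatttactagattctagcaacgctgtcct
Gfra1 3′ UTR, chr19:58311980-58312009, minus strand: tcaactTCATgcatatggctcTCATtaaaa
Gfra2 3′ UTR, chr14:71379322-71379351, plus strand: agacatTCATgcactgtctgtacatactgg
Bdnf 3′ UTR, chr2:109565073-109565102, plus strand: ctCCACtgcCCATgatgtatctccctggtc
Ntrk3 3′ UTR, chr7:85337304-85337333, minus strand: tTCATataaactcaagtgcctgctacacat
Ntrk2 3′ UTR of the full-length form, chr13:59235223-59235252, plus strand: tgtgaccagcttctcTCACcctgacatgga
Ntrk2 3′ UTR of the truncated form, chr13:59037895-59037924, plus strand: tctgcatttagtctggacTCACacttcagg

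The next 5 are whole windows of 100 bases in introns or coding exons whose share of the reads of the gene differed between MN and WSC.
Gfra1 intron, chr19:58324794-58324893, minus strand: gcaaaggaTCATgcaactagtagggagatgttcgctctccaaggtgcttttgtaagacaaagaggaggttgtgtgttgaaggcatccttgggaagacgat
Ret intron, chr6:118135266-118135365, minus strand: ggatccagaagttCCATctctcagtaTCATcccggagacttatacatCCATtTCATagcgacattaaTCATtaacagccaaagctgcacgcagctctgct
Ntrk3 coding exon, chr7:85500948-85501047, minus strand: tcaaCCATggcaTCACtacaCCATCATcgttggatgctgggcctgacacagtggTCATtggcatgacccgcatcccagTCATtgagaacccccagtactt
Ntrk2 coding exon, chr13:58962757-58962856, plus strand: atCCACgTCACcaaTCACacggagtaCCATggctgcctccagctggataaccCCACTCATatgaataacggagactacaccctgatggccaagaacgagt
Ntrk2 intron, chr13:58937857-58937956, plus strand: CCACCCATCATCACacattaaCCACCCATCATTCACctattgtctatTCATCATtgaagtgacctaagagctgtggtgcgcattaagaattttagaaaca

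The motif is common in all windows with CLIP reads, so a match sets no sequence apart. Of 195271 windows of 100 bases, 92.8% held at least 1 match (88.3% of exonic and 97.5% of intronic windows), with a mean of 2.85 matches, and of their middle 30 bases 54.4% did. The Ntrk2 intron window held 10 matches, the coding exon windows of Ntrk3 and Ntrk2 6 each and the Ret intron window 5, while the Gfra1 intron window held 1. At the Ret stop codon no match was found in the 30 bases shown.

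The level of each gene in whole cord spanned from Ntrk2 to Gdnf. Among the ligands, Bdnf, the neurotrophin that activates the receptor TrkB, had 1.67 RPKM (reads scaled to the exon length of the gene and to the reads of the library) in the male and 1.49 RPKM in the female library (mean 1.58 ± 0.125, SD, n = 2 for all RPKM means). Ntf3, which encodes neurotrophin 3, the ligand of TrkC, had 18 and 6 reads, or 0.192 and 0.0701 RPKM. Gdnf had 4 and 10 reads, or 0.0158 and 0.0434 RPKM. Only Bdnf among the ligands was thus above 1 RPKM, and Ntf3 and Gdnf were close to the limit of detection even at this depth.

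All receptors and co-receptors except Ngfr had higher levels than the ligands on this length-corrected scale. Ntrk2, which encodes TrkB, had 48.7 and 43.9 RPKM (46.3 ± 3.41), rank 1461 of all genes. Ret had 22.5 and 25.5 RPKM (24.0 ± 2.06), and its co-receptor Gfra1 24.1 and 25.4 RPKM (24.7 ± 0.902), so the levels of receptor and co-receptor did not differ beyond their spread. Ntrk3, which encodes TrkC, had 7.69 and 6.79 RPKM (7.24 ± 0.638). Gfra2, the preferred co-receptor of neurturin, had 6.94 and 6.33 RPKM (6.63 ± 0.43), and its values overlapped those of Ntrk3. Ngfr was the least expressed receptor at 1.37 and 0.735 RPKM (1.05 ± 0.448). The order of the means was therefore Ntrk2, then Gfra1 and Ret together, then Ntrk3 and Gfra2 together, then Bdnf, Ngfr, Ntf3 and Gdnf.

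**Figure D1:**
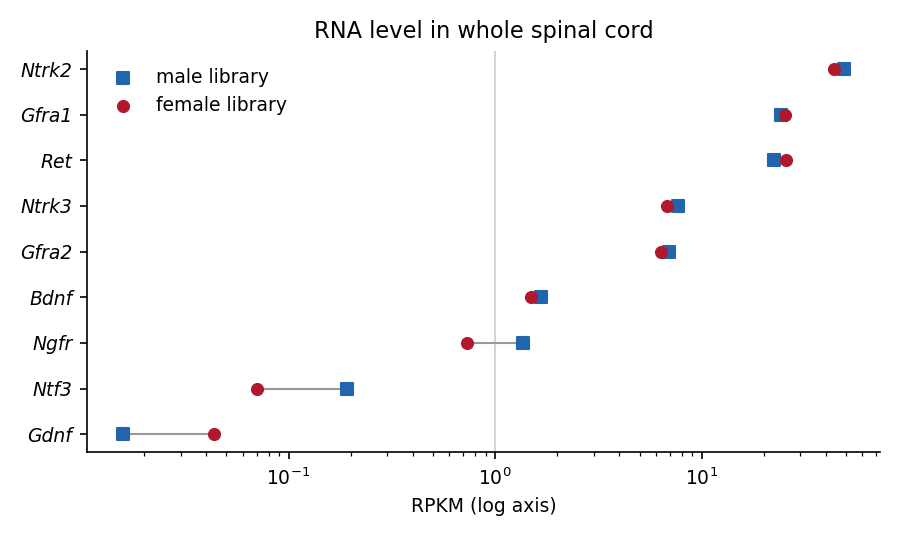
RNA level of the 9 genes in whole spinal cord, in RPKM on a log axis, with the male library as a square, the female library as a circle and a grey line at 1 RPKM. Ntrk2 lies highest at 48.7 and 43.9 RPKM, the male and female values of Ngfr lie well apart, and Ntf3 and Gdnf lie far below 1 RPKM.

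With 1 library of each sex there is no replicate check of a difference between male and female, and none was tested. Ngfr was the only gene of the 9 past 1.5-fold on the log2(RPKM + 0.1) scale among the 7 with a mean of at least 1 RPKM, beside 3.49% of the 11940 genes at that level. It had 335 reads in the male and 164 in the female library, a ratio of RPKM of 1.86 (95% interval 1.54 to 2.26, counting error only). The 6 others above 1 RPKM differed by 0.18 or less in size on the log2 scale, with Ntrk3 at 0.18 (higher in the male) and Ret at −0.17 (lower in the male). Schwann cell markers, cells that carry Ngfr in nerve roots, were low in both libraries, with a sum of 0.449 RPKM in the male and 0.577 RPKM in the female library. Markers of dorsal root ganglion neurons were also low, with a sum of 0.146 RPKM in the male and 0.0946 RPKM in the female library. Gfra3, a further GFRA co-receptor, had 53 reads in the male and 6 in the female library (0.37 and 0.0459 RPKM). The part of roots or ganglia in the Ngfr difference was not tested. The Ngfr difference was not past 1.5-fold with a pseudocount of 1.

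Of the 5 cassette exons, 3 were in Gfra2, 1 in Gfra1 and 1 in Bdnf. The 75-nt Bdnf exon (chr2:109549744-109549818) had no read of inclusion or skipping in either library. The 86-nt Gfra1 exon (chr19:58332218-58332303) was skipped in all 82 junction reads of the male and all 69 of the female library, which puts its inclusion rate at no more than 4.48% and 5.27% (upper 95% Wilson limits). These exons were therefore essentially unused or unmeasured in whole cord.

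The 3 Gfra2 exons were used. A rate sets the average of both inclusion junctions against its sum with the skipping reads, and all intervals are 95% Wilson intervals that cover counting error only. The 355-nt exon (chr14:71325525-71325879) was included at 95.2% (84.0% to 98.7%, 81 junction reads) in the male and 85.7% (68.5% to 94.3%, 52 reads) in the female library. Its upstream and downstream inclusion junctions had 17 and 62 reads in the male and 7 and 41 in the female library. The upstream reads are the same as those counted below as skipping of the 84-nt exon. Reads that enter from the 84-nt exon, 21 and 22, are not counted in this rate. The 315-nt exon (chr14:71295579-71295893) was included at 96.4% (82.3% to 99.4%, 55 reads) and 87.9% (64.8% to 96.6%, 31 reads). Its downstream partner in this event is the 84-nt exon, so the rate holds only for transcripts that use that exon. Reads that skip both exons, 17 in the male and 7 in the female library, are not counted in it. The 84-nt exon (chr14:71301296-71301379) was intermediate at 39.3% (23.6% to 57.6%, 39 reads) and 63.2% (41.0% to 80.9%, 31 reads). Its upstream and downstream inclusion junctions were uneven, with 1 and 21 reads in the male and 2 and 22 in the female library. Skipping reads were 17 and 7, and the averaged rate matches neither junction taken alone. The upstream junction counts only reads that pass over the 315-nt exon. Reads that join the 315-nt exon to the 84-nt exon, 38 in the male and 18 in the female library, are left out of this rate. It therefore does not give the whole use of the 84-nt exon. All intervals of male and female overlapped. In Fisher's exact tests, 2-sided and adjusted over 9396 exons, none of the 4 exons tested differed between the libraries (lowest p = 0.0535 and adjusted p = 0.419, for the 84-nt exon), beside 4.26% of all exons tested. The Gfra2 events share their upstream exon and are not independent, and 2 libraries of 1 mouse each say nothing of the sexes.

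The CLIP comparison of MN with WSC asked on which transcripts NOVA CLIP reads in motoneurons stand out from those in the whole cord. The authors state that CLIP signal depends on the abundance of the transcript. RNA levels in motoneurons were not measured in these libraries, so a difference in binding per transcript was not tested. Of the 9 genes, 4 had enough reads to be tested and 4 were called at an adjusted p of at most 0.01 (edgeR's quasi-likelihood test, Benjamini-Hochberg over 4639 genes). Gfra1, Ntrk3 and Ret had higher NOVA CLIP CPM in MN, and Ntrk2 had fewer. Among all genes tested 27.3% were higher and 28.9% lower, so that such calls were frequent and the number called says little about these genes. When no filter on low counts was used, the median of all genes moved from -0.019 to -0.591 on the log2 scale and 1010 of 19578 genes were higher and 2826 lower, while the 4 genes kept their direction and call.

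Gfra1 had the largest difference of the 4. Its CPM in the Chat6 libraries were 186, 307, 340 and 297, in the Chat17 libraries 19.4, 160, 248 and 245, and in the WSC libraries 99.9, 116, 106 and 102. In 7 of 8 MN libraries the value was above the highest of WSC, and the exception was Chat17 replicate 1, the shallowest library, with 1 read. The log2 fold change was 1.24 (SE 0.146, adjusted p = 7.56e-08), a 2.37-fold difference. It was 1.15 with exonic reads only (adjusted p = 4.63e-05), 1.00 with intronic reads only (adjusted p = 3.95e-06), and 1.49 for Chat6 alone and 0.99 for Chat17 alone against WSC.

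Ret, the signalling receptor to which GFRA1 presents GDNF, was higher as well. Chat6 libraries had 385, 337, 409 and 319 CPM, Chat17 libraries 135, 393, 597 and 325 CPM, and WSC libraries 256, 210, 228 and 228 CPM. Again 7 of 8 MN libraries were above every WSC library and Chat17 replicate 1, with 7 reads, was below them. The log2 fold change was 0.65 (SE 0.125, adjusted p = 7.36e-05). Nearly all Ret reads were exonic, 87.0% to 100% in MN and 98.3% to 99.1% in WSC libraries, and with exonic reads only, which takes the lower exonic share of the MN libraries into account, it was 1.34 (adjusted p = 4.93e-08). Intronic Ret reads were too few for a test.

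Ntrk3 was higher in MN by all reads, but not within either class of read. It had 769, 585, 533 and 498 CPM in Chat6, 639, 617, 364 and 487 CPM in Chat17 and 294, 339, 343 and 320 CPM in WSC libraries, so that all 8 MN libraries were above all WSC libraries. The log2 fold change was 0.74 (SE 0.106, adjusted p = 1.69e-06). Most Ntrk3 reads were intronic in both groups, with an exonic share of 2.50% to 9.04% in MN and 16.7% to 23.6% in WSC libraries. With exonic reads only the difference was -0.07 (adjusted p = 0.845), and with intronic reads only it was 0.07 (adjusted p = 0.577), beside 22.9% of genes higher and 23.8% lower by exonic reads and 12.0% higher and 15.6% lower by intronic reads.

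Ntrk2 carried the most CLIP reads of the 9 genes, 21468 over the 12 libraries, and was slightly lower in MN. The CPM were 1034, 1332, 930.0 and 1086 in Chat6, 1064, 1026, 1194 and 935 in Chat17 and 1282, 1302, 1270.0 and 1402 in WSC libraries. In 7 of 8 MN libraries the value was below the lowest of WSC. The log2 fold change was −0.32 (SE 0.101, adjusted p = 0.00735), a 1.25-fold difference, and the call was lost on leaving out 9 of the 12 libraries in turn (all but Chat6 replicate 2 and Chat17 replicates 1 and 3, adjusted p = 0.0111 to 0.0253). With exonic reads only the direction turned (0.13, adjusted p = 0.336), and with intronic reads only it was −0.24 (adjusted p = 0.0281). Astrocyte markers were also lower in MN, as given above, and their part in the difference was not tested.

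**Figure D2:**
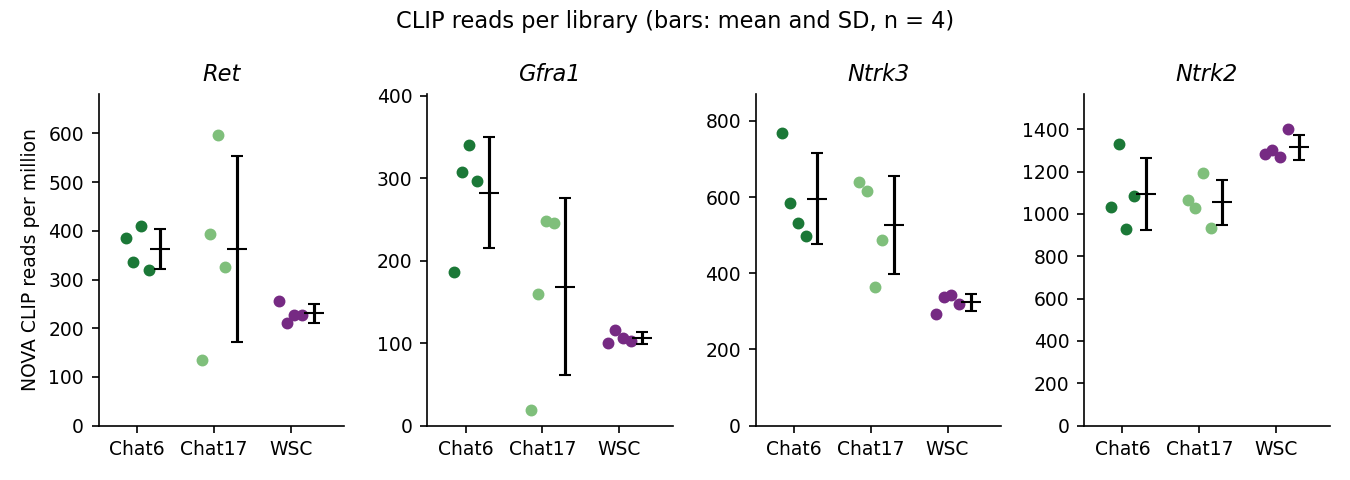
NOVA CLIP CPM in each library for Ret, Gfra1, Ntrk3 and Ntrk2, as points for the Chat6, Chat17 and WSC libraries, with the mean and SD of each group of 4 at its right. The MN libraries of Ret and Gfra1 lie above WSC except for Chat17 replicate 1 (135 and 19.4 CPM), all 8 of Ntrk3 lie above WSC, and Ntrk2 lies below WSC in 7 of 8.

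**Figure D3:**
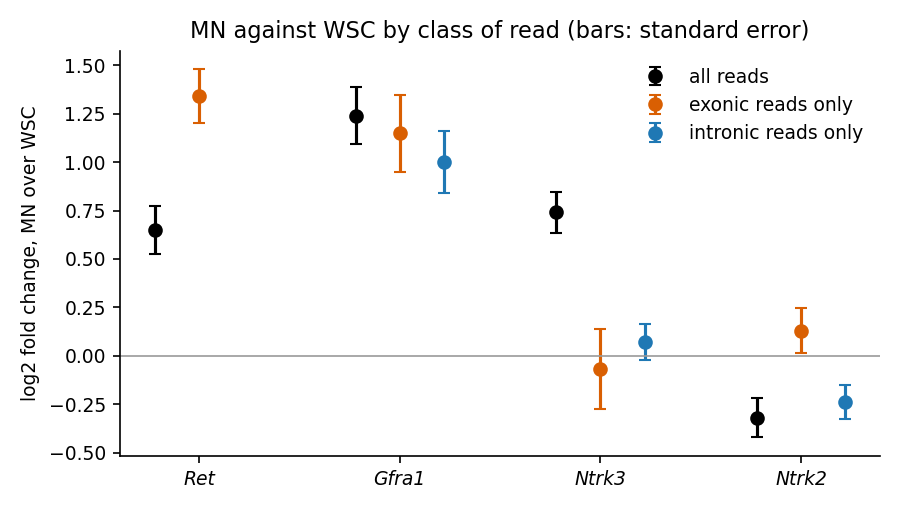
Log2 fold change of MN over WSC with its standard error for all reads, exonic reads only and intronic reads only. Gfra1 stays at 1.00 or above in each class, Ret rises to 1.34 with exonic reads, Ntrk3 falls to −0.07 and 0.07 within the classes, and Ntrk2 lies between −0.32 and 0.13; Ret had too few intronic reads to be tested.

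The other 5 genes had too few reads for a test and get no fold change. Gfra2 had 3, 3, 8 and 3 reads in Chat6, 1, 3, 1 and 20 in Chat17 and 109, 194, 171 and 69 in WSC libraries. Its level was 14.6 to 43.9 CPM (median 24.1) in MN and 34.1 to 36.6 CPM in WSC libraries, with overlapping groups and 6 of 8 MN libraries below all of WSC. Bdnf had 15 reads in all MN libraries together and 160 in WSC, at 0 to 16.0 CPM (median 9.84) and 8.32 to 13.0 CPM. Ngfr had 4 MN and 14 WSC reads, Ntf3 1 and 9, and Gdnf none and 1. A count of 0 allows up to 3 reads, or 4.25 CPM in the deepest and 58.1 CPM in the shallowest MN library. Binding at the levels of Ntf3 and Gdnf was therefore not detectable in most MN libraries, and Ngfr had at most 1 read in each.

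The Chat6 and Chat17 lines did not differ detectably in these genes. None of the 4639 genes was called between the lines (0.00%; 217 genes had an unadjusted p under 0.05, and DESeq2 called 1). The largest difference among the 4 tested was Gfra1, higher in Chat6 by 0.51 on the log2 scale (SE 0.224, adjusted p = 0.974), followed by Ntrk3 at 0.14 (SE 0.157), Ret at 0.07 (SE 0.196) and Ntrk2 at 0.06 (SE 0.137). The Gfra1 difference was 0.35 without Chat6 replicate 3, 0.40 without Chat17 replicate 1, the library with 1 read, and 0.96 without Chat17 replicate 4 (adjusted p = 0.191), and was 0.44 to 0.59 without each of the other MN libraries.

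For each of the 4 genes, the genes with the most similar profile of CLIP reads over the 12 libraries were sought by the root mean square difference of centred log2 CPM. For Gfra1 these were Sec24b (0.266), Nr6a1 (0.491) and Mpp6 (0.507), and for Ret Uggt2 (0.159), Usp40 (0.191) and Snx2 (0.202). For Ntrk3 they were Exoc4 (0.0961), Nbeal1 (0.109) and Fars2 (0.135), and for Ntrk2 Nckap1 (0.0799), Tsc22d1 (0.125) and Mtap4 (0.134). No other of the 4 was among them.

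Where NOVA bound within each gene was compared next, with windows of 100 nt tested against the other windows of the same gene and called at an adjusted p of at most 0.1 and a difference of at least 2-fold. The 9 genes held 347 windows with enough reads, 181 in Ntrk2, 88 in Ntrk3, 35 in Ret, 34 in Gfra1, 6 in Gfra2 and 3 in Bdnf. Of these, 8 were called higher in MN, beside 2.20% of all 194541 windows, and 15 lower, beside 2.49%. All 8 higher windows were intronic, and 14 of the 15 lower ones exonic, which runs in the direction of the lower exonic share of the MN libraries. Of the 15 lower windows, 4 had no MN read and met the filter through the WSC libraries where they were high, so that their calls carry no weight and only their reads are given. When exonic and intronic windows were each tested only against windows of their own class, 3 were called higher (1.06% of all windows) and 8 lower (1.20%). The 8 included chr13:59038157-59038256 and chr7:85494348-85494447, which had no MN read and whose calls carry no weight here either. With these windows counted, 9 of the 23 first calls were among the 11 second calls. The other 2 were a Gfra1 3′ UTR window, chr19:58311794-58311893, with 9 MN and 15 WSC reads (2.07, adjusted p = 0.0806), and a Ntrk2 intron window, chr13:58961457-58961556, with 2 MN and 90 WSC reads. The count of 23 fell to 14 without Chat17 replicate 4 and to 15 without Chat6 replicate 3, the deepest library of each line. Of the 23 calls, 6 were kept on leaving out each of the 12 libraries in turn, and the other 17 were lost at least once (11 without Chat17 replicate 4, 9 without Chat6 replicate 3, 6 without Chat6 replicate 1, 0 without Chat17 replicate 3, and 1 to 5 without each of the others).

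Ret reads were concentrated at the 3′ end. Its longer last exon (3688 nt, chr6:118101766-118105453) encodes the C-terminus of the RET9 form, with 1073 residues in all, and the form called RET51 (1115 residues) is made by splicing 1277 nt (chr6:118104029-118105305) out of it. The leading window, chr6:118104666-118104765, lay inside the spliced-out part and held 37.4% ± 9.08 (SD, n = 8) of the Ret reads in MN and 22.4% ± 2.75 (n = 4) in WSC libraries. Its log2 difference relative to the gene was 0.81 (adjusted p = 0.00162), below the 2-fold limit. Next came the window at the stop codon, chr6:118105266-118105365, with 25.3% ± 11.7 and 30.7% ± 2.98 (log2 difference −0.30, adjusted p = 0.45).

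The share of last-exon reads in the spliced-out part, computed after values of Ret had been seen and therefore given without a test, was 100%, 89.5%, 87.3% and 84.8% in Chat6, 100%, 89.7%, 91.2% and 84.8% in Chat17 and 77.7%, 71.7%, 78.2% and 81.3% in WSC libraries. The groups did not overlap, with fewest reads, 6, in Chat17 replicate 1. The mean was 90.9% ± 6.05 in MN (SD, n = 8) and 77.2% ± 4.04 in WSC libraries (n = 4). Another annotated transcript, Ret-203, has an exon at both leading windows. It has none at the 3′ UTR windows chr6:118101866-118101965 and chr6:118102766-118102865. Reads in the spliced-out part come from the RET9 form, from Ret-203 or from RNA not yet spliced, which these data do not separate.

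**Figure D4:**
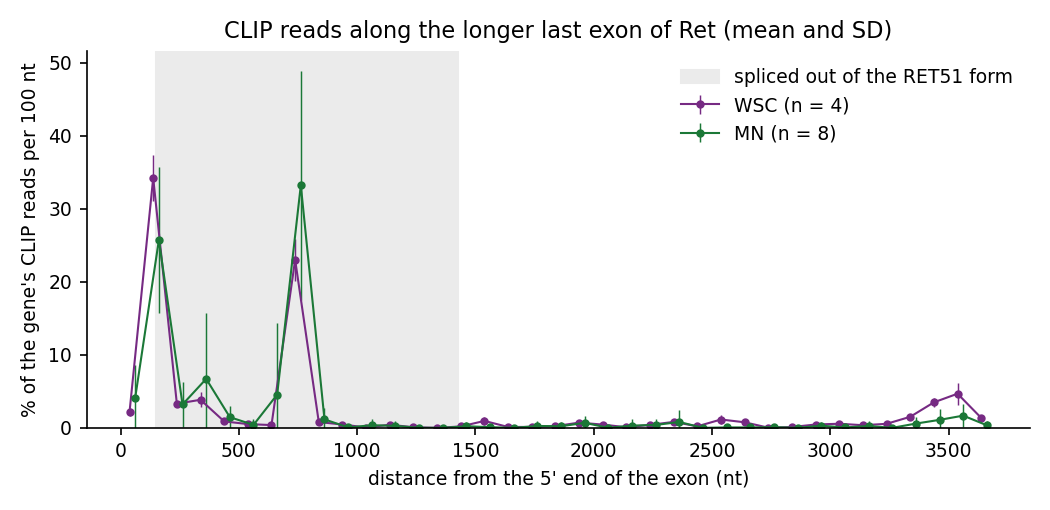
Share of Ret CLIP reads per 100 nt along the longer last exon of Ret, against the distance from its 5′ end in nt, as mean and SD of the 8 MN and 4 WSC libraries, with the part spliced out of the RET51 form in grey. Both groups have 2 main peaks, the first at the 5′ edge of the grey part and the second, higher in MN, near its middle. WSC has a further small peak at the 3′ end of the exon.

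The 4 called Ret windows lay away from these peaks. A window near the 3′ end of the last exon, chr6:118101866-118101965, held 1.93% ± 1.73 of Ret reads in MN and 6.27% ± 1.60 in WSC libraries (log2 difference −1.36, adjusted p = 0.0151) and remained called within its class (−1.31). Another 3′ UTR window, chr6:118102766-118102865, had 2 MN and 70 WSC reads, and one in a coding exon, chr6:118123566-118123665, had 3 MN and 78 WSC reads and was not called within its class (adjusted p = 0.127). The intronic window printed above had 16 reads in each group, or 3.53% ± 2.60 of Ret reads in MN and 0.456% ± 0.0568 in WSC (log2 difference 2.57, adjusted p = 0.000412). It was the only intronic window of Ret with enough reads, so it could not be tested within its class.

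Gfra1 held the called window with the lowest adjusted p of the 23. This window, the intronic one printed above, had 1, 2, 11 and 4 reads in Chat6, 0, 0, 4 and 4 in Chat17 and 2, 3, 2 and 4 in WSC libraries, although the WSC libraries had 1651 Gfra1 reads against 412 in MN. It held 7.47% ± 7.61 of Gfra1 reads in MN and 0.899% ± 0.792 in WSC (log2 difference 3.54, adjusted p = 5.31e-08). The call was kept on leaving out each of the 12 libraries and within intronic windows (2.50, adjusted p = 0.000409), though 11 of its 26 MN reads came from Chat6 replicate 3. In the 3′ UTR, the leading window chr19:58311994-58312093 held 7.02% ± 6.91 and 7.16% ± 1.18 (0.26, adjusted p = 0.696), while chr19:58312294-58312393 held 1.54% ± 2.30 in MN and 7.15% ± 1.58 in WSC (−2.09, adjusted p = 0.0204) and was not called within its class. A coding window, chr19:58312894-58312993, had no MN read and 34 WSC reads, and was not called within its class. The exonic share of all Gfra1 reads was 0.0% (Chat17 replicate 1, with 1 read) to 40.0% in MN and 44.6% to 60.1% in WSC libraries, without overlap. Over the reads of all genes the groups were also apart, at 35.6% to 48.0% and 61.5% to 66.7%.

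Ntrk2 is made as full-length TrkB with a kinase domain (821 residues) and as a truncated receptor without it (476 residues), which is abundant in astrocytes, and each form has a long last exon of its own. The last exon of the truncated form is chr13:59033384-59038391 (5008 nt) and that of the full-length form chr13:59229529-59235331 (5803 nt). Of the reads in both last exons, the truncated form had 30%, 29.3%, 19.1% and 21.1% in Chat6, 42.5%, 25.6%, 25.0% and 22.3% in Chat17 and 29.9%, 26.1%, 33.2% and 30% in WSC libraries. The groups overlapped, with a mean of 26.9% ± 7.36 in MN and 29.8% ± 2.90 in WSC libraries. As for Ret, this share was computed after values had been seen and is given without a test. The exonic share of all Ntrk2 reads was 64.1% to 78.2% in MN and 81.2% to 85.8% in WSC libraries, without overlap, as was also so for the reads of all genes.

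Single windows of Ntrk2 did differ. The pair with the most reads lay in the last exon of the full-length form, chr13:59235157-59235256 with 11.9% ± 4.47 of Ntrk2 reads in MN and 15.7% ± 1.33 in WSC (−0.27, adjusted p = 0.476) and chr13:59232657-59232756 with 6.84% ± 3.11 and 5.43% ± 0.873 (0.27, adjusted p = 0.532), and neither differed. In the last exon of the truncated form, chr13:59037857-59037956 held 0.354% ± 0.57 in MN and 1.79% ± 0.384 in WSC (−2.35, adjusted p = 0.00147), kept its call on leaving out each of the 12 libraries and within exonic windows (−2.18). Near it, chr13:59038157-59038256 had no MN read and 73 WSC reads. In the last exon of the full-length form, chr13:59230857-59230956 had 8 MN and 295 WSC reads (−1.68, adjusted p = 0.0295, and 0.105 within exonic windows, where it was not called) and chr13:59231057-59231156 had 1 and 110.

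**Figure D5:**
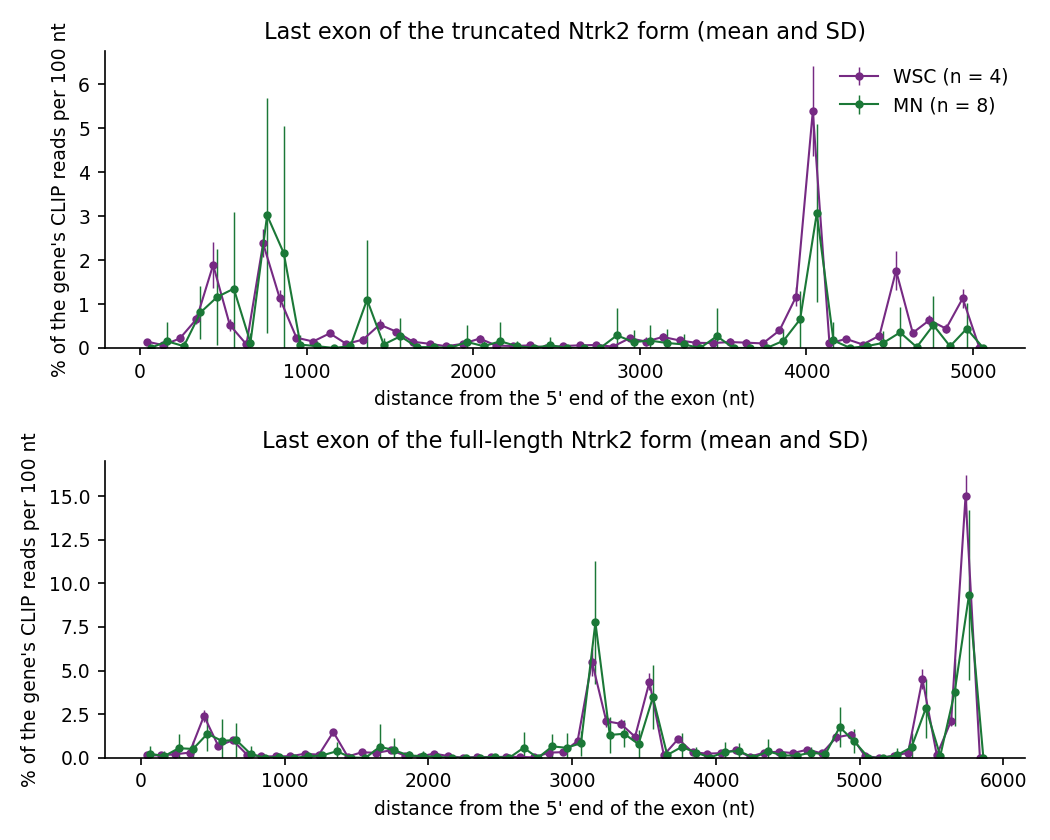
Share of Ntrk2 CLIP reads per 100 nt along the last exon of the truncated form (top) and of the full-length form (bottom), against the distance from the 5′ end of each exon in nt, as mean and SD of the 8 MN and 4 WSC libraries. The main peaks lie at the same distances in both groups, and the window of the truncated form that was lower in MN (0.354% against 1.79%) is among the small WSC peaks near the 3′ end of its exon.

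In the rest of Ntrk2, the coding exon window printed above had 10 MN and 353 WSC reads and was lower in MN (0.439% ± 0.531 against 1.85% ± 0.267, −1.49, adjusted p = 0.0212), also within its class. Of the 3 intronic windows that were higher, chr13:59191257-59191356 had 7 MN and 5 WSC reads (3.88, adjusted p = 0.0011) and remained called within intronic windows (2.87). The window with 10 motif matches, chr13:58937857-58937956, had 20 MN and 104 WSC reads (1.39, adjusted p = 0.0325), and chr13:59063157-59063256 had 6 and 14 (2.40, adjusted p = 0.0711). Neither of these was called within its class (0.39 and 1.39).

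Ntrk3 likewise encodes a full-length receptor (825 residues) and a truncated one (612 residues). Its coding exon window printed above held 0.628% ± 0.711 of Ntrk3 reads in MN and 4.80% ± 0.406 in WSC (7 against 238 reads, −2.56, adjusted p = 9.53e-06), a call kept without each of the 12 libraries, but within exonic windows it was −0.77 (adjusted p = 0.519). The 3′ UTR window chr7:85337248-85337347, the one with the most reads of the gene, held 1.90% ± 1.36 and 4.94% ± 0.845 (−1.07, adjusted p = 0.0588) and turned to 0.71 within its class (adjusted p = 0.417). The coding windows chr7:85605148-85605247 and chr7:85605248-85605347 had 1 and 0 MN reads and 58 and 47 WSC reads, and were not called within their class. An intronic window, chr7:85494348-85494447, had no MN read and 45 WSC reads.

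The 3 intronic windows of Ntrk3 that were higher in MN had few reads. Window chr7:85615948-85616047 had 25 MN and 45 WSC reads (1.64, adjusted p = 0.00638), chr7:85462448-85462547 had 13 and 15 (2.21, adjusted p = 0.015) and chr7:85492948-85493047 had 11 and 15 (2.02, adjusted p = 0.0412). None was called within intronic windows (1.19, 1.77 and 1.57). In Gfra2 and Bdnf no window was called. The leading Gfra2 window, in the 3′ UTR at chr14:71379327-71379426, had 6 MN and 162 WSC reads and held 28.6% ± 4.11 of Gfra2 reads in WSC, and chr14:71379227-71379326 had 1 and 46. The leading Bdnf windows, chr2:109565057-109565156 and chr2:109564457-109564556, also in the 3′ UTR, had 0 and 1 MN reads and 21 and 12 WSC reads.

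The 35 other genes of both pathways, listed by role and not by how they moved, gave a mixed picture. In CLIP, 17 could be tested, of which 7 were higher and 5 lower in MN, beside 27.3% and 28.9% of all genes tested, with a median log2 fold change of 0.21 against -0.019 for all genes tested. None of the 5 further ligands had enough reads. Of the 5 receptors and co-receptors tested of 9, 2 were higher and 2 lower, and of the 12 adaptors and effectors tested of 21, 5 were higher and 3 lower. The calls changed with the class of read. Of the 7 higher genes, 6 could be tested with intronic reads only and 2 of these kept the call (Shc3 and Gab2), whereas Dok6 was lower (from 0.45 to −0.40, adjusted p = 0.000362) and Dok5 (−0.28), Ncam1 (−0.08) and Sorcs2 (0.13) were not called. With exonic reads only, neither of the 2 that could be tested was called (Ncam1 at −0.30 and Gab2 at 0.02), while Sos1 and Sdc3, not called by all reads, were higher at 0.57 each. Of the 5 lower genes, 4 could be tested with exonic reads and 3 kept the call, and Frs2 (−0.69, adjusted p = 0.0194) did not. The median log2 fold change was −0.30 over the 9 pathway genes tested with exonic reads and −0.06 over the 9 tested with intronic reads.

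The pathway genes with the largest increases were Shc3, an adaptor of Trk receptors in neurons, at 1.09 (SE 0.138, adjusted p = 2.6e-07), Gab1, a docking protein downstream of receptor tyrosine kinases, at 1.09 (SE 0.225, adjusted p = 0.000176) and Sorcs2, a receptor for proneurotrophins, at 0.89 (SE 0.163, adjusted p = 4.49e-05). With intronic reads only, Shc3 was at 0.90 (adjusted p = 3e-05), and Gab1 could not be tested. The largest decreases were in Maged1, a partner of NGFR, at −1.80 (SE 0.277, adjusted p = 4.49e-06), Sort1, which encodes the proneurotrophin receptor sortilin, at −1.63 (SE 0.132, adjusted p = 1.5e-10) and Lingo1, a partner of NGFR in the Nogo receptor complex, at −1.43 (SE 0.193, adjusted p = 6.36e-07). All 3 were also lower with exonic reads only (−1.04, −1.40 and −1.64). In RNA-seq 33 of the 35 were found by symbol, 27 had a mean of at least 1 RPKM and none of these was past 1.5-fold between the libraries.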

How the data were processed

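The authors trimmed the poly(A) RNA-seq reads, mapped them with OLego to mm9 and exon junctions, kept unambiguous reads and deposited Quantas read counts and RPKM per gene and counts per cassette exon junction. For CLIP they removed linkers, mapped with Novoalign to mm9 and deposited the position of each unique read, which is not a count or a normalized value. The processing notes of Chat6 replicate 2 list mm10 beside mm9, and its reads were checked and used as mm9, since 63.7% lay within 10 nt of a WSC read (55.1% to 63.5% in the other MN libraries).

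Here CLIP reads were assigned by their centre and strand to genes of GENCODE vM1 (NCBIM37, the assembly of mm9), and reads in several genes were left out (0.711% to 1.08% of a library). No read of the 9 genes was shared with another gene. Counts per gene were tested with edgeR 4.0.16 (R 4.3.3; TMM, filterByExpr, quasi-likelihood, 3 groups in 1 fit, mean of both lines against WSC), and windows of 100 nt with at least 10 reads and reads in at least 4 libraries with diffSpliceDGE, which takes the other windows of the gene as reference. Alternatives were DESeq2 1.42.0, no filter on low counts, exonic or intronic reads only, each line alone, identical read positions counted once, a replicate block, windows of 200 nt or at least 20 reads, and leaving out each library. Testing exonic and intronic windows apart was chosen after seeing the data. The scripts were tested on simulated data. Cassette exons with at least 10 junction reads in each library were compared by Fisher's exact test, and RPKM as log2(RPKM + 0.1) with no test. Intervals and floors cover counting error only.

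The members and all lists were chosen with earlier results of these data known. Named were all 9 genes with their cassette exons, the 3 pathway genes with the largest change in each direction, the 3 most similar profiles, and in each gene the 2 windows with the most reads and every window called, to which those called with exonic and intronic windows apart were added after their values were seen. The libraries are biological replicates per the labels. Replicate numbers were not taken as pairs, since same-numbered libraries deviated from their group means with correlations of 0.0442 to 0.193 between the lines and -0.0688 to 0.0614 between a line and WSC.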

Additional observations from a re-analysis of the deposited data

Results flagged for a closer look

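Of 19 sets of 4 values examined for a value far from the rest, 1 stood apart, about what chance gives, since about 1 in 20 groups is expected to. Bdnf had 0.0 CPM in Chat6 replicate 2, whereas the other Chat6 libraries lay between 11.2 and 13.3 CPM. The library had 0 reads on Bdnf, and 3 reads, the limit that a count of 0 allows, would be 43.9 CPM at its depth.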

How the results depend on the processing

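The calls of Gfra1 and Ret in CLIP were kept under every alternative that gave a value (21 and 20), with log2 fold changes of 0.98 to 1.49 and 0.39 to 1.34. Ntrk3 turned to -0.07 with exonic reads only and was 0.07, not called, with intronic reads only, and kept its call in 19 others. Of its 21 alternatives, Ntrk2 turned to 0.13 with exonic reads only and was not called. In 14 others it kept its direction but lost its call (−0.19 to −0.40). Among these were identical positions counted once (adjusted p = 0.115), Chat6 alone (0.0144) and Chat17 alone (0.0352). Of the 4 genes called, 2 were called with exonic and 1 with intronic reads only, and 3 to 4 without single libraries. Over all genes, 2609 calls became 1098 with exonic and 763 with intronic reads only. The causes of these changes were not tested, although fewer genes could be tested in each class. Between the lines, 3 genes were called without Chat17 replicate 4.

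Member windows called were 23, 11 with exonic and intronic windows apart, and 14 to 24 without single libraries. All windows called were 9123, 4363 apart, 4588 without Chat6 replicate 3 and 3209 without Chat17 replicate 4. With the replicate number as a block, which the data did not show to pair the libraries (7 of 12 libraries correlated best with their own number), 3 genes (Ntrk2 lost, adjusted p = 0.0125), 17 member windows and 5752 windows in all were called, and no gene between the lines. Of the 23 windows, 15 were still called with the block, and the others included all 3 lower Ret windows.

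For RNA-seq, members past 1.5-fold were 1, 0 with log2(RPKM + 1) and 2 (Ngfr and Ntf3) without a minimum level, and all genes past it 417, 190 and 1623. With exon body reads added, the mean inclusion of the Gfra2 exons rose from 90.5% to 98.5% (355 nt), from 51.2% to 70.8% (84 nt) and from 92.2% to 98.4% (315 nt). Without replicate 1 or 2, each level is that of the remaining library. The cause of these changes is the construction of the alternative. Depth limits the comparison most in the MN libraries, where 3 reads are 4.25 to 58.1 CPM.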
